A study of Mus musculus with 80 samples.

Results

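ER protein folding and the unfolded protein response were followed through 41 genes, taken as the rows of the deposited normalized-count table whose symbol stood on a fixed list, out of 23337 genes in all. All 41 were present. This list, like the other gene lists used below, was chosen with earlier results of these data known. Shares of called genes in the lists are thus not independent of that choice. Members numbered 9 among chaperones and co-chaperones, 3 among lectin chaperones with the glycoprotein folding sensor, 10 among disulfide isomerases and oxidases, and 2 among prolyl isomerases. A further 3 were stress sensors, 3 transcription factors of the response, 8 genes of ER-associated degradation and 3 targets of the transcription factors ATF4 and CHOP. Secreted and membrane proteins are folded in the endoplasmic reticulum by chaperones, glycan-binding chaperones and enzymes that form disulfide bonds, and chains that do not fold are pulled back into the cytosol and degraded. When unfolded chains build up, the sensors IRE1 (gene Ern1), PERK (Eif2ak3) and ATF6 send a signal to the nucleus through XBP1, ATF4 and cleaved ATF6, which act on the genes of chaperones, oxidases and the degradation machinery. AgRP neurons of the arcuate hypothalamus drive feeding and secrete large amounts of the peptides AgRP and NPY, which pass through this folding machinery.

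RNA-seq libraries came from mouse arcuate AgRP neurons in 80 libraries and 20 groups of 2 to 8. Sorted cells expressed hrGFP in NPY neurons (genotype NPY::hrGFP) and were isolated by FACS from arcuate slices: 6 libraries from mice fed ad libitum at ZT2 (early in the light phase) and 3 at ZT14 (early in the dark), 7 and 8 after an effective 24 hour fast, and 5 and 4 after the same fast and 1 hour of refeeding. RiboTag RNA (AGRP-Cre;RiboTag) was immunoprecipitated with tagged ribosomes of Cre-expressing cells: 3 ad libitum and 5 fasted libraries at ZT2, and 4 and 5 at ZT14. Another 25 libraries form a leptin series: floxed controls that carry no Cre (WT;BMAL1fx) and mice whose AgRP cells lose Bmal1, gene Arntl (AGRP-Cre;BMAL1fx), given PBS or leptin at either time, 3 libraries each except 4 for control PBS at ZT2. A further 5 libraries at ZT5, 2 floxed controls and 3 knockouts, carry no treatment label. Age, strain, sex, leptin dose and the feeding state of the leptin and ZT5 series are not given in the labels. An NPY reporter also marks any other NPY cell in the dissected tissue, and a tagged ribosome follows wherever the Cre was ever active. Nothing in the labels says that libraries of 1 group came from separate mice, so a p-value here speaks of the spread among libraries alone, and that spread may be technical.

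Values are deposited normalized counts (each library's gene counts over its own size factor). Differences are on the log2(value + 1) scale, given ± SE, and each p is limma's, adjusted over every gene tested in that comparison. A member was called, or said to have risen or fallen, where the adjusted p was under 0.05. Where groups are said not to overlap, this only describes the values. The share of all genes that did not overlap was not computed. All 41 members passed the filter on low values in every fit except that of the ZT5 libraries alone, which left out Derl3. Recovered reads ranged from 5.93 M to 33.98 M in 79 libraries (median 14.27 M), and in the library labelled sorted ad libitum ZT2 replicate 4 single reads could not be recovered. All fasted and all ZT5 libraries, 30 in all, stood apart from the other 50 in genes outside the list: Alyref, an mRNA export gene, was at 545 to 2756 in them and at 12.3 to 81.8 in the others, and Cebpb, a transcription factor gene, at 42.5 to 1565 and 0 to 17.1. Rn45s, the ribosomal RNA precursor, had a median of 5367 in them and 209817 in the others, with overlapping ranges. No label calls the ZT5 mice fasted. The difference between ZT5 controls and PBS controls at ZT2 is therefore given beside the sorted ZT2 fasting results of each member called in it. Every fasted library had the high Alyref and Cebpb levels, and no ad libitum one did. The fast and this profile thus cannot be told apart for any of the 41 members, called between those controls or not. Hsd11b2, a neighbour of Agrp that is high in libraries of the AGRP-Cre lines, was at 4628 in ZT5 control replicate 1 and at 11.2 in ZT5 knockout replicate 3, both against their labels. Summed markers of AgRP neurons had medians of 231555 in sorted ad libitum cells at ZT2, 545453 in fasted and 1303774 in refed ones, and 81234 in ad libitum and 362094 in fasted RiboTag libraries. Npy and Agrp made up most of these sums, with medians of 180459 and 41111 in sorted ad libitum cells and 1004387 and 288772 in refed ones. The sums thus follow those peptide genes and are no separate measure of cell content. RiboTag libraries held other cells' RNA: 7 astrocyte markers summed to a median of 20606 in ad libitum RiboTag at ZT2, against 66.5 in sorted ad libitum cells, and oligodendrocyte markers to 14155 against 725.

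Promoter sequences of the members are shown first because several of them carry the letters of response elements that were defined on ER chaperone genes, so their presence in those genes is not independent of the list. The ER stress response element (ERSE, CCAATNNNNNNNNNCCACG) and its shorter relative ERSE-II (ATTGGNCCACG) are read by NF-Y together with ATF6 or XBP1, the unfolded protein response element UPRE (TGACGTGG) by XBP1 and ATF6, and the C/EBP-ATF response element CARE (TGATGNAA) by ATF4 with a C/EBP partner. Sequences are from RefSeq on GRCm38, in windows of 250 bases before to 50 after the gene start, searched on both strands. Each line gives the gene's own strand 5′ to 3′, up to 40 bases on either side of the match and ending before the start, with positions counted from the start and the match in capitals.

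Hspa5 (chr2:34771985-34772083, plus strand, positions -105 to -7): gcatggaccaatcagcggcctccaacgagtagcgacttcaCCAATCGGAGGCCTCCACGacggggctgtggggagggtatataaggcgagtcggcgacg
Calr (chr8:84847035-84847133, minus strand, positions -202 to -104): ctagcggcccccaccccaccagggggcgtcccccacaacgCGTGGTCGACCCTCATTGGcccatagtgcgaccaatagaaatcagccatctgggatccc
Canx (chr11:50325760-50325858, minus strand, positions -185 to -87): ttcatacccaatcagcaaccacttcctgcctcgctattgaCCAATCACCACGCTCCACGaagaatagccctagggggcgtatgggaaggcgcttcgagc
Pdia6 (chr12:17266451-17266549, plus strand, positions -138 to -40): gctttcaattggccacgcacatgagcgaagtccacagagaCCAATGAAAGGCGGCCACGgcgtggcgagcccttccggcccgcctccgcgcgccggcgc
Creld2 (chr15:88819480-88819578, plus strand, positions -166 to -68): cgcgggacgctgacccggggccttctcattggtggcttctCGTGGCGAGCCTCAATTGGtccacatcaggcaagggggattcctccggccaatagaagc
Syvn1 (chr19:6046492-6046575, plus strand, positions -84 to -1): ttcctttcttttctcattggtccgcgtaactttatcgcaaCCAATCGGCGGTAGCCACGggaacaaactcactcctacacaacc
Herpud1 (chr8:94386337-94386427, plus strand, positions -92 to -2): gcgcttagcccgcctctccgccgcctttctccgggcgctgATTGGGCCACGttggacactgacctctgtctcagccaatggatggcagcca
Asns (chr6:7693210-7693272, minus strand, positions -63 to -1): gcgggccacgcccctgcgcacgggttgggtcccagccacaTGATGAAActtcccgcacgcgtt

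The first 6 lines hold ERSE, with Calr and Creld2 carrying it on the opposite strand (seen as CGTGG followed by ATTGG), Herpud1 holds ERSE-II and Asns holds CARE. ERSE stood in 10 of the 36 members with a promoter entry (27.8%): Hspa5, Hsp90b1 (which has 2 copies), Dnajc3, Creld2, Calr, Canx, Pdia6, Ero1lb, Syvn1 and Derl3. Over all genes with a promoter entry it stood in 37 of 27025 (0.137%). ERSE-II, found in 12 of the 27025 genes (0.0444%), stood in Herpud1 and, 8 bases after the start, in Dnajb11. UPRE stood in Txndc5 and Txndc11, against 0.714% of all genes, and CARE in Chac1, Trib3, Asns, Herpud1 and Txndc5 (13.9% of members), against 4.51% of all genes. No promoter entry was at hand for Hyou1, Manf, Erp29, Atf6 and Derl1. A match of letters is a description and not a site of binding.

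**Figure D1:**
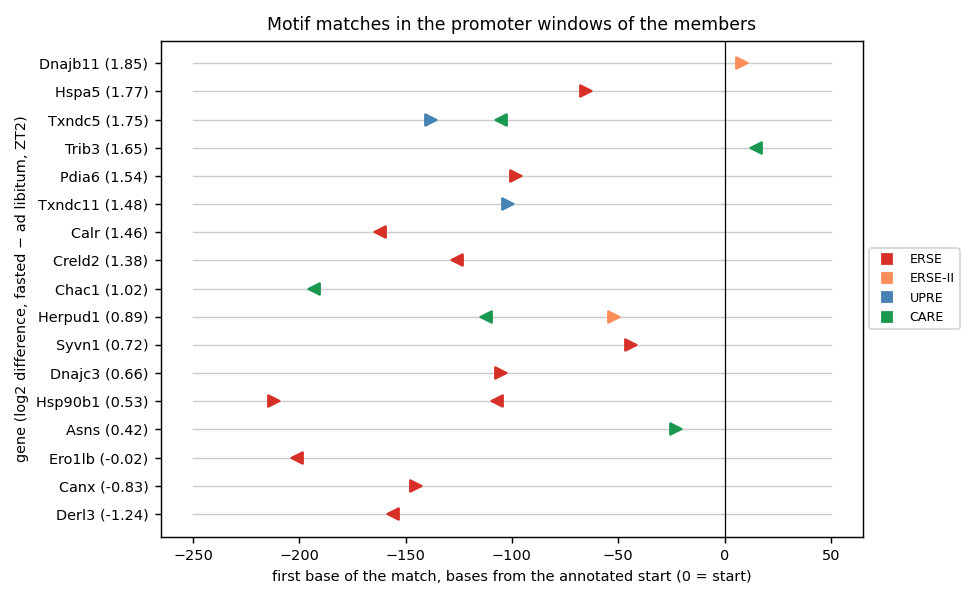
Positions of element matches in member promoters. The x axis gives bases from the gene start and each row is a member with at least 1 match, coloured by element. ERSE matches stand from -212 to -44 from the start.

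Per kilobase of exon (union of GENCODE M21 exons, 40 members with a length), the most abundant members in sorted ad libitum cells at ZT2 were Canx (calnexin, a membrane lectin chaperone) with a median of 4002 normalized counts per kb and Pdia3 (the disulfide isomerase that works with the lectin chaperones) with 3610. Hspa5 (BiP, the main Hsp70 chaperone of the ER) followed with 2557 and Hsp90b1 (GRP94, its Hsp90) with 2520, a pair whose values overlapped between libraries. After fasting the order changed: Hspa5 reached 7577 per kb and Pdia3 6900, while Canx was at 2201. Sorted ad libitum cells at ZT2 were the group with the lowest median for 12 of the 41 members, more than for any other of the 20 groups. The share of all genes with their lowest median in that group was not computed, so the count may not be particular to the members.

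Fasting was examined first. In sorted cells at ZT2, 26 of 41 members rose after the fast and 3 fell, where 18.3% of all 14931 genes tested were called higher and 19.2% lower. The median member difference was 0.65 against -0.02 over all genes. Chaperones (8 of 9 rose), disulfide isomerases and oxidases (7 of 10) and degradation genes (5 of 8) made up most of the rise, while Hyou1, Uggt1 and Canx fell and no sensor gene was called. In bulk RNA, fewer cells of a type and less RNA per cell cannot be told apart. The AgRP marker sums given above, mostly Npy and Agrp, differed between the same groups. Other markers moved with this fast as well. Summed markers of POMC and other arcuate neurons (10 genes) were at 6016 to 10929 (median 8519) ad libitum and 11893 to 65301 (median 26611) fasted, and those of astrocytes (7 genes) at 16.6 to 431 (median 66.5) and 204 to 10286 (median 444). Tanycyte and ependymal markers (6 genes) were at 25.1 to 261 and 94.3 to 5534, while Rn45s fell by 5.98 on the log2 scale (adjusted p = 1.40e-10). Endothelial markers had medians of 10.3 and 28.0. Oligodendrocyte markers went the other way by median, at 725 (639 to 897) and 500 (315 to 4635), and so did microglial ones, at 10.1 and 7.79. No marker of these lists was at 0 throughout either group, and their part in the member changes was not tested. Alyref (5.11) and Cebpb (6.56) rose in the same comparison, so the fast cannot be told apart from the library profile for any member. Fasted replicates 3 and 6 had tanycyte sums over 1000, and without them 28 members were called in place of 29. The count was 24 to 30 of 41 when single libraries were left out, and 25 by edgeR's quasi-likelihood test on recovered reads.

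**Figure D2:**
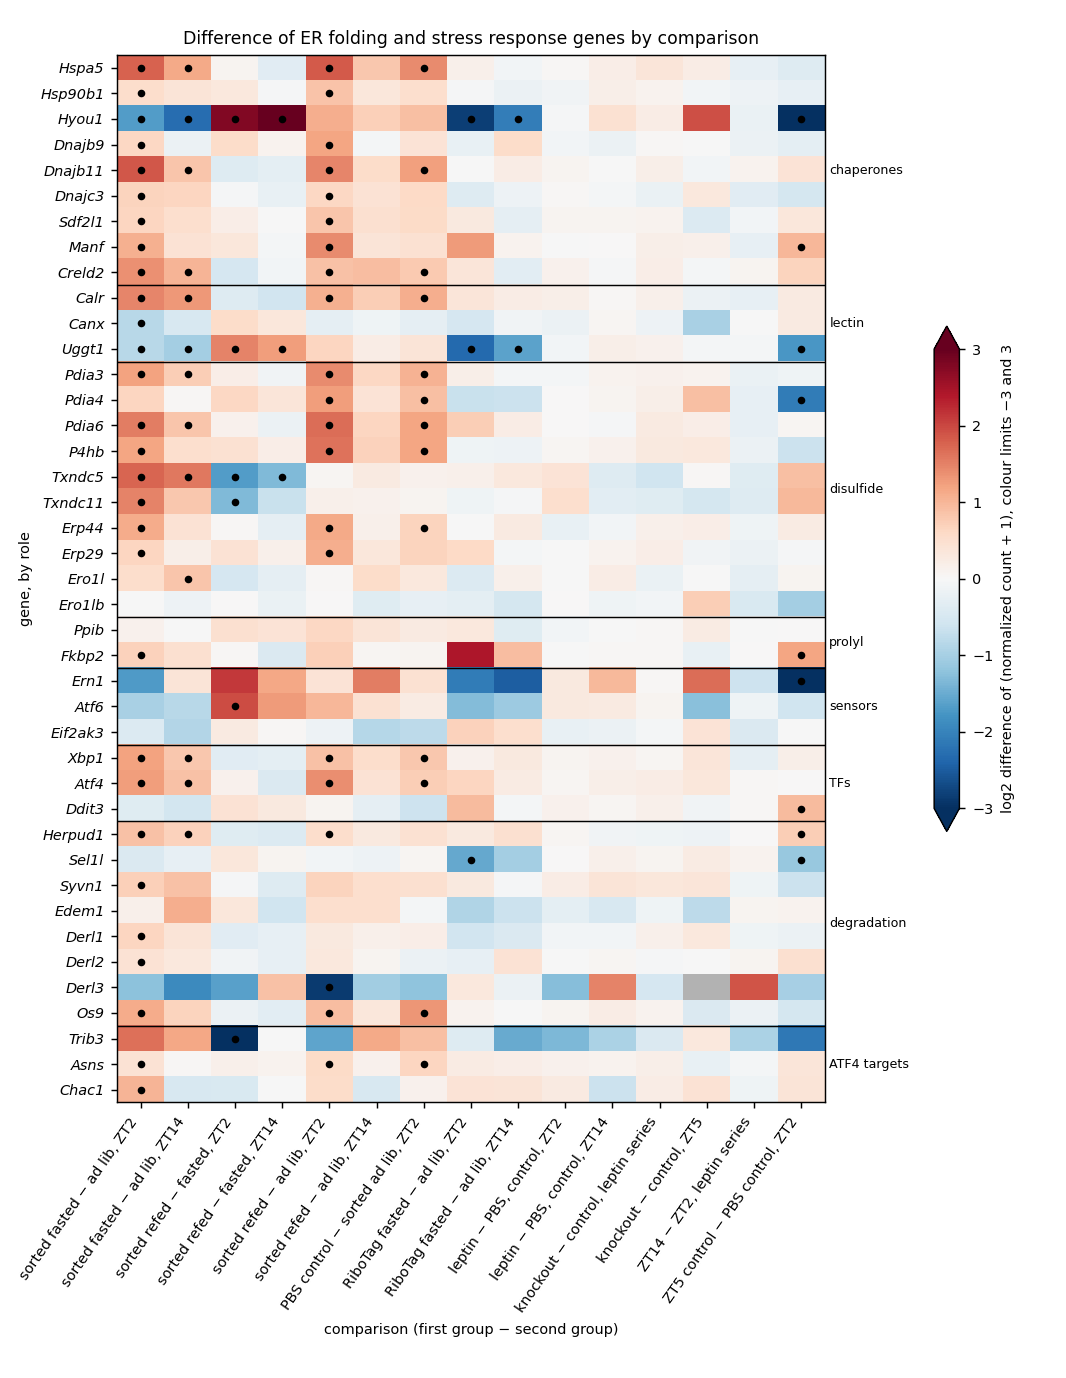
Log2 differences of the 41 members (rows, ordered by role) in 15 comparisons (columns), on a colour scale from -3 to 3. Dots mark adjusted p under 0.05 by limma and grey marks a member not tested. The sorted fasting and refed-against-ad-libitum columns at ZT2 hold most dots, and the leptin and knockout columns hold none.

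Among chaperones, Hspa5 (chromosome 2, 34772090 to 34776529 on GRCm38) was at 9048 to 13225 (median 10815) in ad libitum libraries and 27425 to 65952 (median 32045) in fasted ones. Every fasted library lay above every ad libitum one (1.77 ± 0.26, adjusted p = 1.62e-06). Dnajb11 (ERdj3, the J-protein that hands unfolded chains to BiP; chromosome 16, 22857845 to 22879634) was at 375 to 632 (median 458) in ad libitum libraries and 1360 to 2858 (median 1542) in fasted ones. It likewise did not overlap between groups and had the largest difference of the group (1.85 ± 0.23, adjusted p = 8.27e-08). Creld2, an ER-resident and secreted protein, was at 273 to 438 (median 374) in ad libitum libraries and 699.8 to 1226 (median 985) in fasted ones, again with no overlap (1.38 ± 0.21, adjusted p = 2.97e-06). Manf, an ER-resident and secreted survival factor that binds BiP, rose by 1.07 ± 0.30 (adjusted p = 0.00441), with 6 of 7 fasted libraries above all others. It also differed between ZT5 and PBS controls (0.99 ± 0.30, adjusted p = 0.0114). Dnajc3, which stimulates BiP and inhibits PERK, rose by 0.66 ± 0.20 (adjusted p = 0.0082). Smaller rises were found for Sdf2l1 (0.64), which keeps clients bound to the chaperones, Dnajb9 (ERdj4; 0.63) and Hsp90b1 (0.53). The call of Dnajb9 was lost in 12 of 19 alternatives, that of Sdf2l1 in 5 and that of Hsp90b1 in 1.

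**Figure D3:**
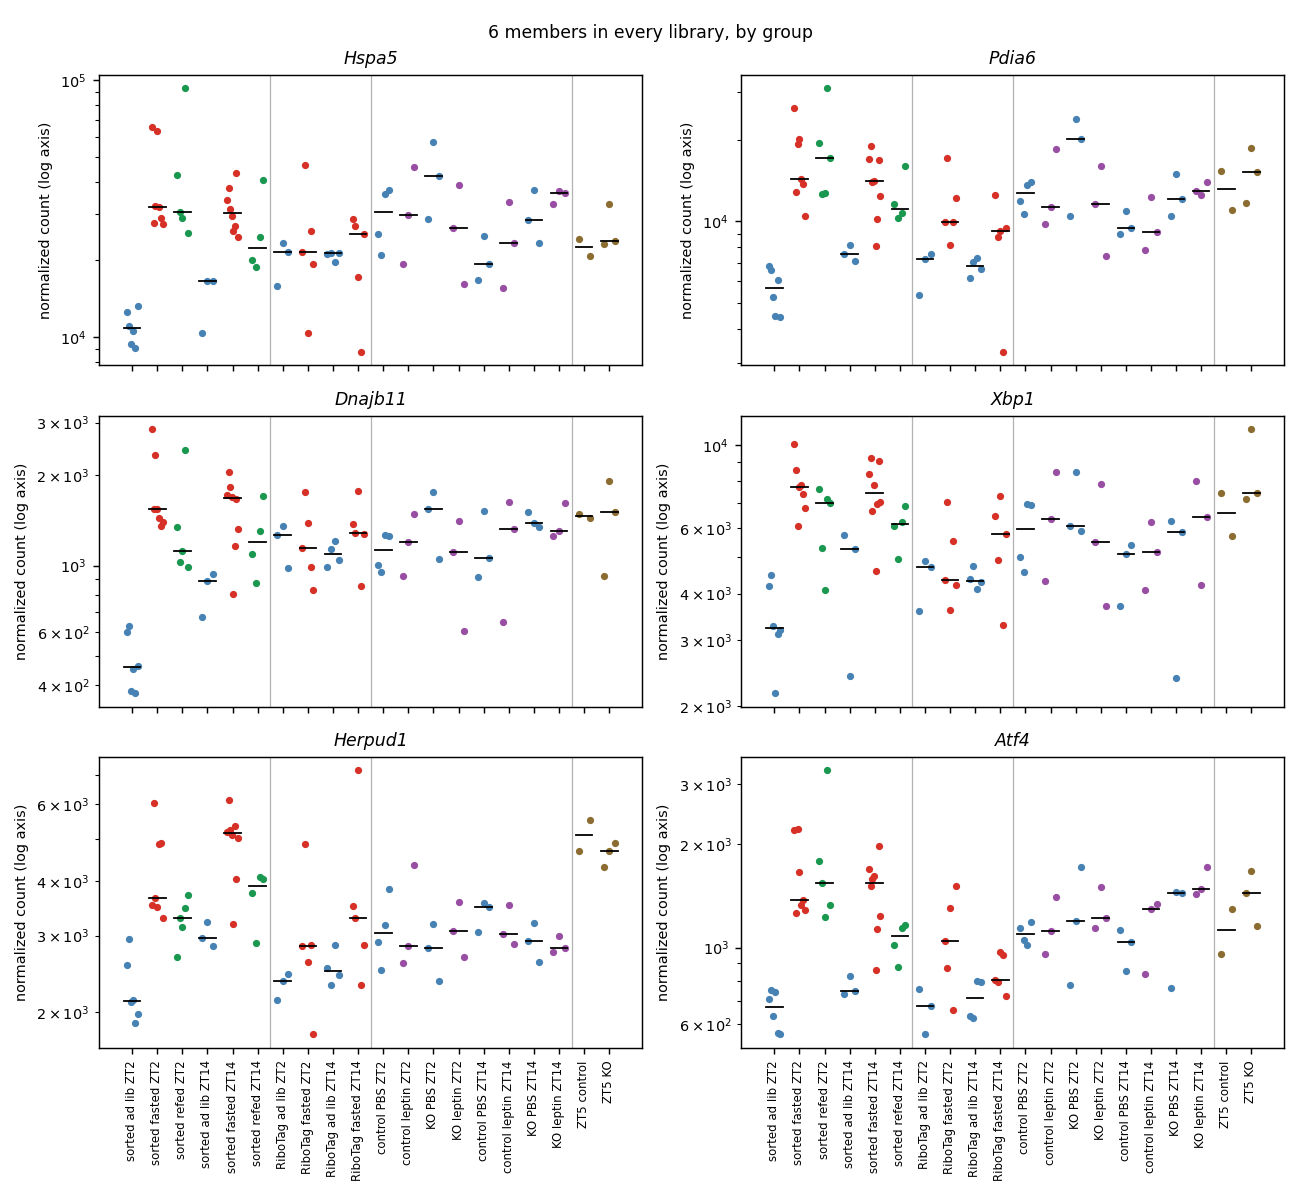
Normalized counts (log axis) of Hspa5, Pdia6, Dnajb11, Xbp1, Herpud1 and Atf4 in each library of the 20 groups, with the group median as a black bar. Blue points are ad libitum or PBS, red fasted, green refed, purple leptin and brown ZT5. Sorted ad libitum cells at ZT2 lie lowest or near it, for Hspa5 at 9048 to 13225.

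Hyou1 (GRP170, a large Hsp70 relative and exchange factor of BiP) went the other way, with 296 to 705 (median 401) in ad libitum libraries and 69 to 342 (median 112) in fasted ones. Of 7 fasted libraries 6 lay below all ad libitum ones (-1.68 ± 0.55, adjusted p = 0.0157). Uggt1, the glucosyltransferase that tags misfolded glycoproteins for another round with the lectin chaperones, was at 669 to 1061 (median 843) in ad libitum libraries and 253 to 773 (median 484) in fasted ones. Its fasted values were below all others in 6 of 7 libraries (-0.84 ± 0.23, adjusted p = 0.00456). Between ZT5 controls and PBS controls at ZT2, Hyou1 differed by -5.33 ± 0.43, adjusted p = 1.43e-09 and Uggt1 by -1.75 ± 0.32, adjusted p = 1.51e-04, in the same direction as after the fast, in libraries set apart by the same Alyref and Cebpb levels. The part of that shared profile in the falls was not tested. The lectin chaperones themselves split. Calr (calreticulin, the soluble one) was at 1787 to 2265 (median 1986) in ad libitum libraries and 3851 to 9689 (median 4933) in fasted ones, with no overlap (1.46 ± 0.25, adjusted p = 2.60e-05). Canx was at 10754 to 28941 (median 18780) in ad libitum libraries and 7903 to 11791 (median 10330) in fasted ones and fell by 0.83 on the log2 scale (SE 0.21, adjusted p = 0.00248), with 4 of 7 fasted libraries below all ad libitum ones.

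**Figure D4:**
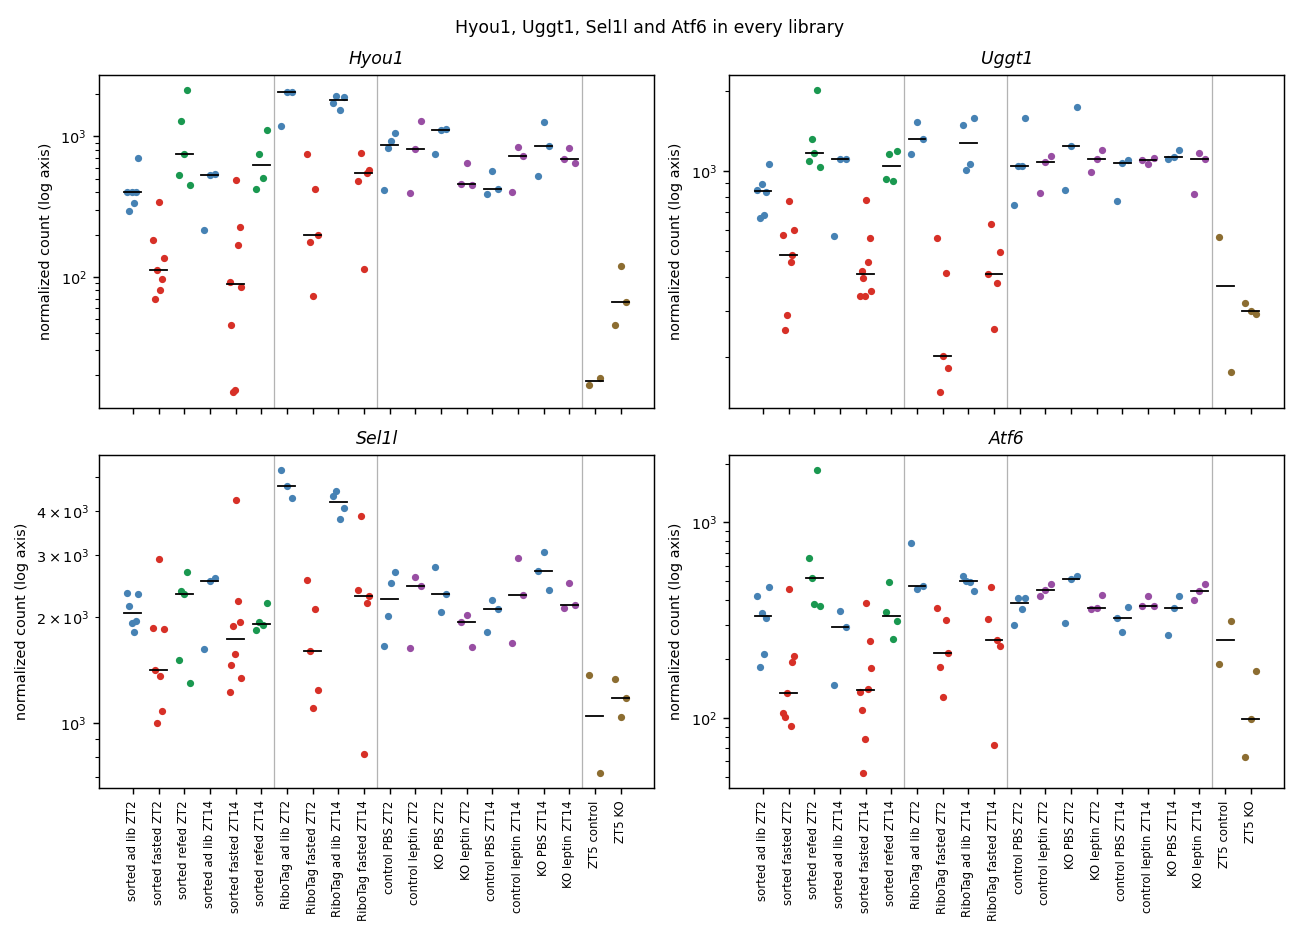
Normalized counts (log axis) of Hyou1, Uggt1, Sel1l and Atf6 in each library of the 20 groups, with the group median as a black bar and colours by condition. Fasted and ZT5 libraries lie low for Hyou1 and Uggt1 in sorted cells and RiboTag alike, and the refed medians of both lie above the fasted ones.

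Among the disulfide enzymes, Pdia6 (chromosome 12, 17266589 to 17284785) was at 4415 to 6856 (median 5651) in ad libitum libraries and 10487 to 26144 (median 14375) in fasted ones. All 7 fasted libraries lay above all 6 others (1.54 ± 0.22, adjusted p = 1.11e-06). Txndc5 (ERp46) had the largest difference of the enzymes (1.75 ± 0.32, adjusted p = 4.28e-05), at 599 to 963 (median 786) in ad libitum libraries and 1453 to 5971 (median 2612) in fasted ones, without overlap. Txndc11, a thioredoxin-domain protein of the ER membrane, rose by 1.48 ± 0.33 (adjusted p = 6.55e-04). Pdia3 went from a median of 11332 to 21659 (1.21 ± 0.20), P4hb (PDI itself) from 3128 to 6441 (1.17 ± 0.21) and Erp44, which retains unpaired secretory subunits, from 1380 to 2425 (1.10 ± 0.18). For each of the 3 no fasted library overlapped an ad libitum one. Erp29, which lacks the isomerase active site, rose by 0.65 ± 0.21 (adjusted p = 0.0126). Pdia4 (0.63 ± 0.26, adjusted p = 0.055) and the oxidase Ero1l (0.54 ± 0.22, adjusted p = 0.0534) were not called, and Ero1lb, the oxidase prominent in insulin cells, differed by -0.02 ± 0.35. Of the prolyl isomerases, Fkbp2 rose by 0.68 ± 0.24 (adjusted p = 0.0265; lost in 4 of 19 alternatives) and Ppib (cyclophilin B) differed by 0.12 ± 0.23. Fkbp2 also differed between ZT5 and PBS controls (1.17 ± 0.29, adjusted p = 0.003). Pdia4 was lower in ZT5 than in PBS controls (-2.09 ± 0.33, adjusted p = 2.76e-05), and the part of the shared profile in its fasting result was not tested.

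None of the 3 sensor genes was called, and all had differences below 0. Ern1 was at 24.5 to 69.3 (median 33.6) in ad libitum libraries and 0 to 69.7 (median 12.1) in fasted ones (-1.70 ± 0.82, adjusted p = 0.102), Eif2ak3 at 66.5 to 146 (median 80.8) in ad libitum libraries and 46.7 to 99.9 (median 65.6) in fasted ones (-0.42 ± 0.52, adjusted p = 0.556) and Atf6 at 181 to 465 (median 334) in ad libitum libraries and 90.7 to 459 (median 133) in fasted ones (-0.96 ± 0.41, adjusted p = 0.0603). Their ranges overlapped between groups, and the counts of Ern1 and Eif2ak3 were low. Ern1 was lower in ZT5 than in PBS controls (-3.74 ± 1.14, adjusted p = 0.0131), and the part of the shared profile in its fasting result was not tested. Of the 3 downstream transcription factors, Xbp1 and Atf4 rose. Xbp1, whose mRNA IRE1 splices (the table does not separate spliced and unspliced forms), was at 2160 to 4481 (median 3236) in ad libitum libraries and 6063 to 10050 (median 7730) in fasted ones (1.21 ± 0.20, adjusted p = 9.13e-06). Atf4, the factor translated when PERK phosphorylates eIF2α, was at 559 to 755 (median 671) in ad libitum libraries and 1259 to 2221 (median 1378) in fasted ones (1.26 ± 0.20, adjusted p = 5.54e-06). Both were higher in all 7 fasted libraries than in any ad libitum one. Ddit3 (CHOP), which ATF4 induces under lasting stress, was at 449.7 to 1064 (median 674) in ad libitum libraries and 259.7 to 850.5 (median 661) in fasted ones and was not called (-0.36 ± 0.27, adjusted p = 0.3). It was higher in ZT5 than in PBS controls (0.95 ± 0.31, adjusted p = 0.018). Of the ATF4 and CHOP targets, Chac1 (a glutathione-degrading enzyme) was at 109.8 to 185 (median 148) in ad libitum libraries and 203 to 452 (median 316) in fasted ones and rose by 1.02 ± 0.25 (adjusted p = 0.00131), without overlap. Asns (asparagine synthetase) rose by 0.42 ± 0.16 (adjusted p = 0.0312, lost in 7 of 19 alternatives), and Trib3, at low counts of 14.8 and 44.8 by median, was not called (1.65 ± 0.82, adjusted p = 0.113).

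In ER-associated degradation, Herpud1, a scaffold of the membrane complex that exports misfolded proteins, was at 1895 to 2939 (median 2125) in ad libitum libraries and 3293 to 6042 (median 3657) in fasted ones, with no overlap (0.89 ± 0.16, adjusted p = 2.93e-05). Between ZT5 and PBS controls it differed by 0.73 ± 0.20, adjusted p = 0.00524. For Manf, Fkbp2 and Herpud1 the part of the profile shared by fasted and ZT5 libraries was not tested. Os9, a lectin that delivers misfolded glycoproteins to the complex, rose by 1.11 ± 0.28 (adjusted p = 0.00226) and the channel component Derl1 by 0.64 ± 0.16 (adjusted p = 0.00208), the latter in 7 of 7 libraries. Syvn1 (HRD1, the ubiquitin ligase; 0.72, lost in 5 of 19 alternatives) and Derl2 (0.42, lost in 9) rose less. Sel1l, the partner of HRD1, was at 1818 to 2345 (median 2050) in ad libitum libraries and 1000 to 2934 (median 1417) in fasted ones and was not called (-0.42 ± 0.24, adjusted p = 0.158); Edem1, which trims mannose from misfolded glycoproteins, differed by 0.16 ± 0.34. Sel1l was lower in ZT5 than in PBS controls (-1.13 ± 0.25, adjusted p = 9.72e-04), and the part of the shared profile in its fasting result was not tested. Derl3 was nearly absent, at medians of 10.8 and 2.81. Members with ERSE or ERSE-II in the promoter window numbered 12, of which 9 rose and 1 (Canx) fell, with a median of 0.80. The 24 members with a promoter entry and neither element had 14 that rose and 1 (Uggt1) that fell, with a median of 0.64. Hspa5, Pdia6, Creld2 and Calr, printed above with ERSE, were among the members without overlap between groups, while Ero1lb and Derl3, which also hold it, were not called. Txndc5, Pdia3, P4hb, Erp44, Xbp1, Atf4 and Chac1, which hold neither ERSE nor ERSE-II in the window, did not overlap either. A link between the elements and the rise was not tested.

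A wider list held 129 other genes of the pathway, of which 127 were tested. At ZT2, 56 of them rose and 11 fell, where 18.3% of all genes were called higher and 19.2% lower. Their median was 0.52. The split of risen and fallen genes was 17 and 3 of 38 among other chaperones and oxidoreductases and 17 and 0 of 28 in ER-associated degradation. It was 9 and 5 of 27 in stress signalling, where the fallen share was near that of all genes. Among amino acid and integrated stress response genes it was 13 and 3 of 34. By the smallest p, Ppp1r15a (GADD34, the phosphatase subunit that restores translation after PERK activity) rose by 2.13 ± 0.26, Nars (asparaginyl-tRNA synthetase) by 1.05 ± 0.14, the membrane thioredoxin gene Tmx1 by 1.20 ± 0.17, the apoptosis effector Bax by 1.70 ± 0.24 and the cationic amino acid transporter Slc7a3 by 1.14 ± 0.18. Tmx4, a relative of Tmx1, fell (-1.58 ± 0.22).

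At ZT14, in the dark phase, 11 members rose and 2 fell after the fast, where 9.66% of all genes were called higher and 8.81% lower, and the median was 0.44 against -0.04. The groups were 8 fasted and 3 ad libitum libraries, none of them used at ZT2. Marker sums moved here too: AgRP markers had medians of 261054 ad libitum and 599403 fasted, those of POMC and other arcuate neurons 7692 and 17551, and astrocyte markers 23.1 (up to 32.4) and 679 (273 to 15926). Oligodendrocyte markers went the other way by median, at 755 (576 to 856) and 453 (275 to 1042), with Cldn11 at 0 in all 3 ad libitum libraries. The astrocyte markers Aqp4 and Gja1 were at 0 in all 3 ad libitum libraries. So were Ghrh and Tac2 of the other arcuate neurons and Gpr50, Crym and Ccdc153 of the tanycyte and ependymal list. Tac2 was also at 0 in all fasted libraries. Rn45s fell by 5.64 on the log2 scale (adjusted p = 6.75e-08). The part of these in the member changes was not tested. Without fasted replicates 3 and 4, whose tanycyte sums were over 1000, 9 members were called in place of 13, and Pdia6, Dnajb11, Pdia3 and Hyou1 were no longer among them (adjusted p = 0.0549, 0.0742, 0.0528 and 0.0621 by limma). Of the 26 members that rose at ZT2, 24 had a difference above 0 at ZT14 and 10 were called: Hspa5, Dnajb11, Creld2, Calr, Pdia3, Pdia6, Txndc5, Xbp1, Atf4 and Herpud1. Ero1l was the eleventh (0.83 ± 0.27, adjusted p = 0.029). Hspa5 was at 10386, 16479.7 and 16552 in the ad libitum libraries and at 24574 to 43552 (median 30461) in the fasted ones. All 8 fasted values lay above all 3 others (1.14 ± 0.31, adjusted p = 0.0094). Calr was at 1542, 1819 and 2020.2 and 3264 to 6545 (median 4102), also without overlap (1.29 ± 0.31, adjusted p = 0.00317), as was Txndc5, at 869, 426 and 1395 and 1652 to 3756 (median 2218) (1.58 ± 0.38, adjusted p = 0.00372). Atf4 was at 734, 829 and 748 and 860.1 to 1984 (median 1548) (0.87 ± 0.24, adjusted p = 0.00993). Xbp1 at 5727, 2404 and 5258 and 4584 to 9248 (median 7446) had 7 of 8 fasted libraries above all others (0.81 ± 0.24, adjusted p = 0.0151), and was not called without ad libitum replicate 2 (adjusted p = 0.324).

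Hyou1, at 215, 534 and 541 in ad libitum and 15 to 489 (median 88.1) in fasted cells at ZT14, again fell (-2.29 ± 0.67, adjusted p = 0.0152), with 6 of 8 fasted libraries below the others. Uggt1, at 571, 1109 and 1112 and 339.6 to 779 (median 409.7), fell in 7 of 8 (-1.02 ± 0.28, adjusted p = 0.0104). edgeR did not call Hyou1 here (adjusted p = 0.0807). With 3 ad libitum libraries the count rested on each of them: 8 members were called without replicate 1, 4 without replicate 2 and 8 without replicate 3, against 13 with all. Fasted replicate 5 at ZT14 was the lowest of its group for Creld2, Xbp1, Ddit3 and Asns and the highest for Sel1l by Dixon's test. In the wider pathway list 22 rose and 5 fell of 127, where 9.66% of all genes were called higher and 8.81% lower. The risen ones were led by Creb3l1, an ER-bound transcription factor (2.34 ± 0.42), Ube2j1, the conjugating enzyme that works with HRD1 (1.24 ± 0.25), and Herpud2, a relative of Herpud1 (1.15 ± 0.26). Whether fasting acted differently at the 2 times was tested directly: no member was called by limma or edgeR, and 0.0% of all genes were. At an unadjusted limma p under 0.05 stood 6 of 41 members, a larger share than the 4.33% of all genes. The member differences were lower at ZT14 for 34 of 41, with a median of -0.37 against 0.03 over all genes. All of them used the same 3 ad libitum libraries at ZT14, so they are not independent of each other.

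One hour of refeeding changed few members within its own comparison with the fast. At ZT2, 3 members rose and 3 fell, where 10.8% and 11.1% of all genes were called higher and lower. Refed libraries lay outside the profile of the fasted ones: Alyref fell by 4.86 and Cebpb by 6.39 on the log2 scale, and Rn45s rose by 5.55, so that the library profile changed with this comparison. Hyou1 and Uggt1, which differed along that profile between ZT5 and PBS controls, are among the members below. The other members called below were not called between those controls. There Txndc5 differed by 0.90 ± 0.49, Txndc11 by 0.97 ± 0.52, Atf6 by -0.59 ± 0.30 and Trib3 by -2.14 ± 1.20 (adjusted p = 0.155, 0.151, 0.134 and 0.168). The part of the profile in any of these members was not tested. Hyou1, at 530.4, 1282, 755, 2155 and 449.7 in the 5 refed libraries, lay above every fasted value (2.78 ± 0.58, adjusted p = 5.83e-04), and Uggt1, at 1091, 1318, 1165, 2019 and 1037, did too (1.48 ± 0.24, adjusted p = 2.48e-05). Atf6, at 660.1, 517, 382, 1860.5 and 372, rose with 3 of 5 libraries above all fasted ones (1.97 ± 0.43, adjusted p = 8.32e-04). Txndc5, at 1992, 599.8, 401, 1029.9 and 730.4, fell, with 4 of 5 refed values below all fasted ones (-1.69 ± 0.33, adjusted p = 2.75e-04). Txndc11, at 653, 299, 134, 159.5 and 194, had the same 4 of 5 (-1.32 ± 0.35, adjusted p = 0.00579). Trib3 fell from a median of 44.8 to 3.5 (-3.24 ± 0.86, adjusted p = 0.00584), though edgeR did not call it (adjusted p = 0.0566). Several of the members that rose after the fast were not called here, with differences of 0.08 ± 0.27 for Hspa5, 0.13 ± 0.23 for Pdia6, 0.12 ± 0.21 for Atf4 and -0.34 ± 0.21 for Xbp1. The wider list held 14 that rose and 14 that fell of 127, near the shares of 10.8% and 11.1% over all genes. Among them were Kdelr2, the receptor that returns ER residents from the Golgi (1.39 ± 0.20), and the calcium-binding chaperone gene Rcn1 (-1.77 ± 0.23).

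At ZT14, Hyou1 (424, 751, 503 and 1108 in 4 refed libraries; 3.01 ± 0.61, adjusted p = 6.98e-04) and Uggt1 (929.8, 1154, 921 and 1189; 1.24 ± 0.26, adjusted p = 7.95e-04) rose and Txndc5 (576, 1158, 744 and 1716; -1.32 ± 0.35, adjusted p = 0.00906) fell, where 6.36% and 5.3% of all genes were called higher and lower. Alyref (-5.25), Cebpb (-7.00) and Rn45s (5.41) again differed with them. All 4 refed Uggt1 values, and 3 of 4 Hyou1 values, lay above all fasted ones. Without fasted replicate 5, Atf6 (1.49) and Herpud1 (-0.49) were called as well, giving 5.

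Refed cells were then set against ad libitum cells, which the fasting comparison also used. At ZT2, 20 members were higher and 1 lower, where 9.01% of all genes were called higher and 8.72% lower, and the median was 0.67 against -0.14. Chaperones again led, with 8 of 9 higher, followed by 6 of 10 disulfide enzymes, 2 of 3 transcription factors and 2 of 8 degradation genes. Hspa5 was at 42838, 30576, 28940.4, 93381 and 25469 in the refed libraries, all above the ad libitum maximum of 13225 (1.85 ± 0.28, adjusted p = 2.41e-05). Pdia6 was at 19380.2, 12599, 12705, 31104 and 17124 (1.67 ± 0.24, adjusted p = 8.58e-06) and P4hb at 10286, 8288, 7726, 18734 and 6189 (1.62 ± 0.22, adjusted p = 6.53e-06), both without overlap. Pdia4, not called after the fast, was at 2879.9, 2382, 2548, 4092 and 2204 and 854 to 1525 (median 1147) in ad libitum cells (1.25 ± 0.29, adjusted p = 0.0026), and Dnajb9 was higher by 1.19 ± 0.27 (adjusted p = 0.00243). Txndc5 (0.06 ± 0.34) and Txndc11 (0.16 ± 0.36) were near the ad libitum level, and Hyou1 (1.09 ± 0.60, adjusted p = 0.215) and Uggt1 (0.65 ± 0.25, adjusted p = 0.0715) were not called. Refed replicate 4 was the highest of the 5 for most of the members whose values are given here, for Hspa5 at 93381. Without it 14 members were called in place of 21. Derl3 was the 1 lower member, at 0 in 4 of 5 refed libraries, and edgeR did not call it (adjusted p = 0.0887). At ZT14 no member was called by limma or edgeR and 0.375% of all genes were, with a median member difference of 0.39. At an unadjusted limma p under 0.05 stood 6 of 41 members, a larger share than the 6.43% of all genes.

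Since both fasted and refed cells lay above the same 6 ad libitum libraries, those were also set against the 4 floxed control PBS libraries collected at ZT2, a comparison added after the data were seen. It spans separate mouse lines and collections, which cannot be told apart from the treatment. Of the 41 members 13 were higher in PBS controls and none lower, where 5.09% and 2.66% of all genes were called, and the median was 0.47 against -0.06. Hspa5 was at 25267, 20781, 35967 and 37261 in the PBS libraries, all above every sorted ad libitum value (1.42 ± 0.30, adjusted p = 0.00137). Pdia6 at 11858, 10673, 13601 and 13956 (1.17 ± 0.25, adjusted p = 0.00141), Dnajb11 at 1004, 954, 1262 and 1254 (1.22 ± 0.26, adjusted p = 0.00164) and Calr at 3593, 3341, 4809 and 5702 (1.09 ± 0.29, adjusted p = 0.0128) likewise did not overlap. Os9 (1.32 ± 0.35), P4hb (1.17 ± 0.25), Pdia3 (1.03 ± 0.23), Pdia4 (0.91 ± 0.30), Xbp1 (0.80 ± 0.25), Creld2 (0.79 ± 0.25), Atf4 (0.74 ± 0.22), Erp44 (0.66 ± 0.18) and Asns (0.64 ± 0.16) were the others. PBS libraries had low Alyref and Cebpb, as had the ad libitum ones. Marker sums differed between these groups: AgRP markers, mostly Npy and Agrp, had medians of 426041 with PBS and 231555 ad libitum. Those of POMC and other arcuate neurons were at 21599 (16788 to 43867) and 8519 (6016 to 10929), and astrocyte markers at 382 (217 to 686) and 66.5 (16.6 to 431). Agrp itself was higher with PBS (1.24 ± 0.39, adjusted p = 0.0366). Their part in the 13 was not tested. The count was 8 without PBS replicate 1, 6 without replicate 3 and 7 without replicate 4. At ZT14 no member was called by limma or edgeR (1 had an unadjusted p under 0.05, as had 5.29% of all genes), and 0.257% of all genes were.

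RiboTag RNA gave another view of the same fast. At ZT2 no member rose and 3 fell (Uggt1, Hyou1 and Sel1l), where 4.08% of all 15444 genes were called higher and 3.81% lower. The median was 0.10 against -0.18. Hyou1 was at 1177, 2076 and 2077 in the 3 ad libitum libraries and 751, 177, 72.6, 419 and 200 in the 5 fasted ones (-2.83 ± 0.63, adjusted p = 0.0106). Uggt1 was at 1162, 1532 and 1320.4 and 561, 148, 203, 415 and 182 (-2.33 ± 0.40, adjusted p = 0.00146), and Sel1l at 5246, 4717 and 4356 and 2548, 1597, 1101, 2105 and 1239 (-1.54 ± 0.38, adjusted p = 0.0196). For each of the 3, all fasted values were below all ad libitum ones. These members also differed between ZT5 and PBS controls, Sel1l by -1.13 ± 0.25, adjusted p = 9.72e-04, and a part of the shared library profile in them was not tested. Hspa5 in contrast was at 15787, 23217 and 21472 and 21491, 46525, 10329.6, 25943 and 19226, with overlapping groups (0.15 ± 0.43, adjusted p = 0.858). Pdia6 at 5331, 7232 and 7575 and 9954, 17119.5, 8184, 9919 and 12156 did not overlap but was not called (0.74 ± 0.36, adjusted p = 0.186). Of the 26 members that rose in sorted cells, 17 had a RiboTag difference above 0 and none was called in either direction.

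Fkbp2 lay just outside the threshold (2.43 ± 0.74, adjusted p = 0.0519). It was at 1742, 1501 and 1899 in ad libitum libraries and at 2674, 4034, 52133, 4844 and 24443 in fasted ones, with the highest values in replicates 3 and 5. Those libraries stood apart as a whole, with deposited values that summed to 42.51 M and 22.19 M against 13.46 M to 15.13 M in the other 3 of the group, and replicate 5 had Agrp at 1488869 where the others had 40354 to 124349. Manf was at 1118, 1341 and 1647 and 2132, 2773, 5059, 2979 and 4205 (1.27 ± 0.39, adjusted p = 0.051). edgeR called both (adjusted p = 0.0243 and 0.0382), for a total of 5 members. Without fasted replicates 3 and 5 neither was called, and Uggt1 and Hyou1 were the 2 members that were, Sel1l being lost (adjusted p = 0.0834 by limma). Without ad libitum replicate 2 only Uggt1 was called. At ZT14, Uggt1 was at 1493, 1013, 1065 and 1576 in 4 ad libitum and 412, 632, 256, 379 and 496 in 5 fasted libraries (-1.60 ± 0.37, adjusted p = 0.0122) and Hyou1 at 1732, 1929.6, 1538 and 1926 and 481, 759, 113, 549.9 and 573 (-2.08 ± 0.57, adjusted p = 0.0425), again without overlap. They were the 2 members called, where 4.15% of all genes were called higher and 1.14% lower. The call of Hyou1 was lost in 11 of 14 alternatives. In the wider list 5 genes rose and 2 fell of 127 at ZT2, and 8 rose at ZT14. Of all genes, 4.08% were called higher and 3.81% lower at ZT2, and 4.15% higher at ZT14. Mogs, the first glucosidase of glycoprotein trimming (3.55 ± 0.46 and 3.06 ± 0.42), and Creb3l1 (2.53 ± 0.64 and 2.92 ± 0.58) rose at both times.

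The difference between methods was tested in a joint fit of sorted and RiboTag libraries (16238 genes). At ZT2 the fasting difference was lower in RiboTag for 9 members and higher for none, where 3.11% of all genes were called lower and 3.61% higher, with a median of -0.84 against -0.09. The 9 were Dnajb11 (-1.86 ± 0.36, adjusted p = 0.00192), Hspa5 (-1.62 ± 0.48, adjusted p = 0.0319), Uggt1 (-1.49 ± 0.43, adjusted p = 0.0291), Pdia4 (-1.31 ± 0.39, adjusted p = 0.0361), P4hb (-1.30 ± 0.38, adjusted p = 0.0326), Derl1 (-1.20 ± 0.29), Erp44 (-1.11 ± 0.29), Xbp1 (-1.07 ± 0.33) and Dnajc3 (-1.05 ± 0.32). For Uggt1 this meant a deeper fall in RiboTag, and for the others a more positive difference in sorted cells than in RiboTag. The count was 5 by edgeR, 2 without RiboTag ad libitum replicate 1 or replicate 2, and 1 (Dnajb11) without RiboTag fasted replicates 3 and 5, whose values summed far above the others. At ZT14 no member was called by limma or edgeR, and 1.03% of all genes were. At an unadjusted limma p under 0.05 stood 8 of 41 members, a larger share than the 13.5% of all genes. Ad libitum levels were compared between methods too. At ZT2, 15 of 41 members were higher in RiboTag and none lower, where 27.4% of all genes were called higher and 14.2% lower, and the count was 9 to 15 with 1 library left out. Os9 was at 3019.5, 3073 and 2848 in RiboTag against 546 to 954 (median 690.1) in sorted cells (2.05 ± 0.33, adjusted p = 4.15e-06), Hyou1 at 1177, 2076 and 2077 against 296 to 705 (median 401) (2.07 ± 0.69, adjusted p = 0.0148) and Calr at 5621, 5461 and 5015 against 1787 to 2265 (median 1986) (1.42 ± 0.31, adjusted p = 2.74e-04). None of the 3 overlapped. Hspa5 was not called (0.87 ± 0.37, adjusted p = 0.0507), although all 3 RiboTag values lay above all 6 sorted ones. At ZT14, 11 were higher and 1 lower (Dnajb9, -1.10 ± 0.36, adjusted p = 0.0133), where 25.1% and 11.3% of all genes were. The member share at ZT14 was thus near that of all genes. The higher glial marker sums of RiboTag moved with these differences, and their part was not tested.

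**Figure D5:**
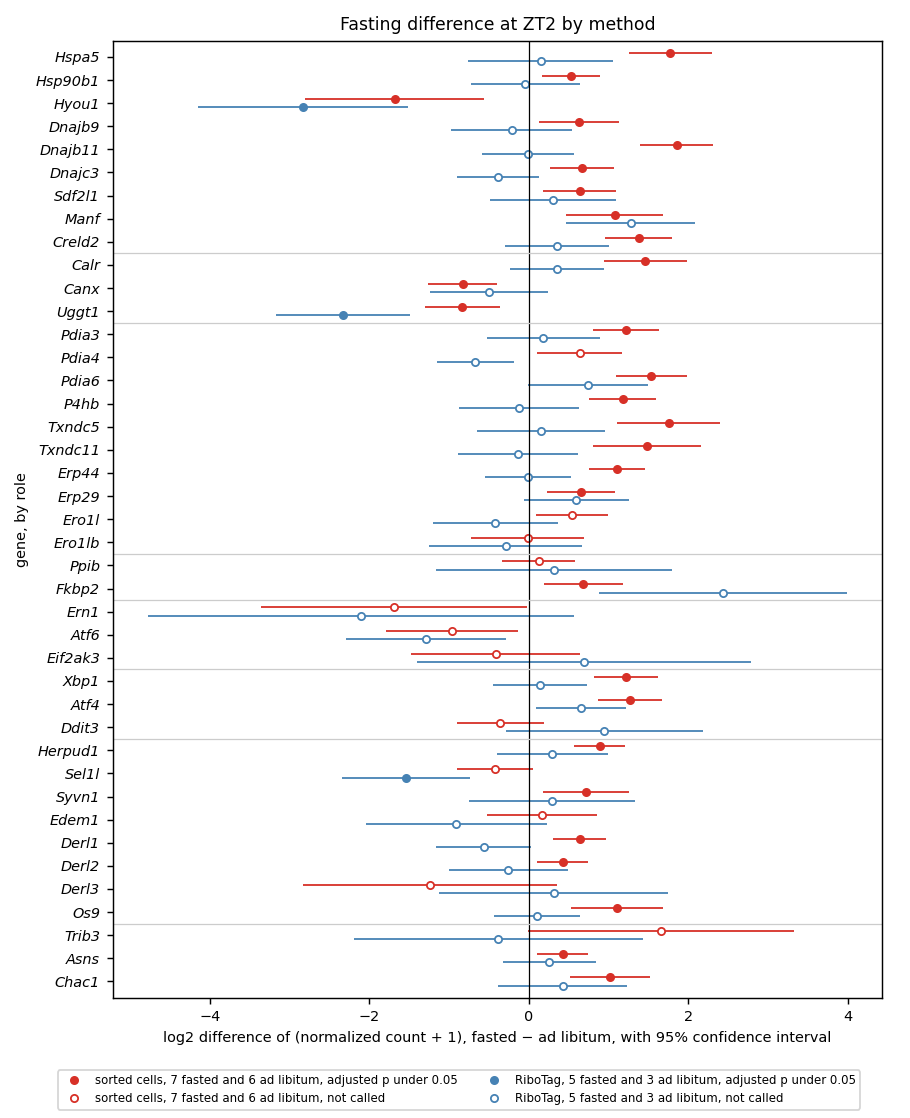
Log2 difference of fasted minus ad libitum at ZT2 with its 95% confidence interval, for each member, in sorted cells (red) and RiboTag (blue). Filled points had adjusted p under 0.05 by limma. Most sorted points lie to the right of 0, and the 3 filled RiboTag points, Uggt1, Hyou1 and Sel1l, lie to the left.

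Time of day, leptin and loss of Bmal1 each left every member uncalled. Between ZT14 and ZT2, no member was called in ad libitum, fasted or refed sorted cells by limma or edgeR, where 0.0%, 0.281% and 0.0268% of all genes were. At an unadjusted limma p under 0.05 stood 5, 4 and 10 of 41 members, against 2.77%, 9.87% and 7.62% of all genes. The member share was above that of all genes in ad libitum and refed cells. In ad libitum and fasted RiboTag no member was called either (0 and 4 at an unadjusted p under 0.05, beside 0.596% and 8.94% of all genes), with 0.0% of all genes called in each, nor over the leptin series (4, beside 11.4%), with 0.638% called. Hspa5 differed between ZT14 and ZT2 by 0.38 ± 0.33, adjusted p = 1 in ad libitum sorted cells and by -0.25 ± 0.24, adjusted p = 0.837 in fasted ones, and Xbp1 by 0.33 ± 0.25, adjusted p = 1 and -0.07 ± 0.18, adjusted p = 0.947. Their 95% intervals were -0.28 to 1.04 and -0.18 to 0.84 in ad libitum cells. The clock gene Arntl was called between the times in fasted sorted cells (-1.88 ± 0.24, adjusted p = 5.6e-05) and over the leptin series (-1.04 ± 0.21, adjusted p = 0.0169). It was not called in refed (-1.18 ± 0.31, adjusted p = 0.248) or ad libitum (-0.33 ± 0.33) sorted cells, nor in ad libitum or fasted RiboTag. An uncalled member in those comparisons therefore does not show a level that is flat across the day.

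Leptin, the fat-derived hormone that inhibits AgRP neurons, was compared with PBS within genotype and time, with no member called by limma or edgeR. In floxed controls 0.0215% of all genes were called at ZT2 and 0.0% at ZT14 (0 members at an unadjusted p under 0.05 at both times, beside 2.14% and 2.75% of all genes), and in knockouts 0.423% and 0.0861% (3 and 2 members, beside 8.66% and 5.25%). In controls at ZT2, Hspa5 was at 25267, 20781, 35967 and 37261 after PBS and 19273, 29735 and 45995 after leptin (0.04 ± 0.32, adjusted p = 1), with overlapping groups, and Xbp1 at 5019, 4575, 6942 and 6928 after PBS and 4309, 6325 and 8483 after leptin (0.09 ± 0.32, adjusted p = 1). Atf4 differed by 0.06 ± 0.25 and Herpud1 by 0.05 ± 0.18. The knockouts at ZT2 had 34 of 41 differences below 0, with a median of -0.32 against 0.02 over all genes. Hspa5 was at 28908, 57630.3 and 42428 after PBS and 26641, 39131 and 16009 after leptin (-0.69 ± 0.35, adjusted p = 0.595), Pdia6 at 10452, 23829 and 20035 after PBS and 11577, 15976 and 7459 after leptin (-0.62 ± 0.29, adjusted p = 0.545) and Hyou1 at 745, 1113 and 1137 after PBS and 461, 651 and 452 after leptin (-0.93 ± 0.39, adjusted p = 0.465). Hyou1 did not overlap between those groups, while Hspa5 and Pdia6 did. At ZT14 the corresponding Hspa5 differences were 0.20 ± 0.35 in controls and 0.28 ± 0.35 in knockouts.

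For the knockout, the deleted gene was examined first. Arntl was at 246 to 526 (median 332) in knockout PBS libraries at ZT2 against 291 to 1125 (median 822) in controls, and over the series it differed by -0.84 ± 0.21 (adjusted p = 0.143), which was not called. Counts over the whole gene hold reads outside the deleted part. No member was called between genotypes by limma or edgeR: with PBS at ZT2 and ZT14, 0 and 3 members had an unadjusted p under 0.05, as had 5.39% and 7.6% of all genes (0.0215% and 0.00717% called). Over the leptin series 2 did, as did 7.81% of all genes (0.0789% called), and at ZT5 4 did, as did 8.94% (0.0% called). Knockouts with PBS at ZT2 had 34 of 41 differences above 0, with a median of 0.20 against -0.02. The PBS groups of this comparison also stand in the leptin ones. Hspa5 was at 28908, 57630.3 and 42428 in knockouts and 25267, 20781, 35967 and 37261 in controls (0.51 ± 0.32, adjusted p = 0.999), which overlapped. At ZT5, Hspa5 was at 23998 and 20720.4 in controls and 22947, 32823 and 23596 in knockouts (0.23 ± 0.20, adjusted p = 0.742). Canx, with the smallest p there, was at 15636 and 20806 and 9713, 9745 and 8181 (-0.97 ± 0.18, adjusted p = 0.511), and was the 1 member called without control replicate 1 (adjusted p = 0.0342). No member was called without both libraries whose Hsd11b2 went against the label.

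The ZT5 controls (2 libraries) were set against PBS controls at ZT2 (4) to show how members differ along the profile that the fasted and ZT5 libraries share. The clock time, the treatment and the library set differ together and cannot be told apart. In all, 4 members were higher and 5 lower, where 13.0% and 21.5% of all genes were called, and the median was 0.01 against -0.19. Hyou1 was at 17 and 19 against 417, 822, 925 and 1059.8 (-5.33 ± 0.43, adjusted p = 1.43e-09), Pdia4 at 473 and 547 against 2158, 1524, 2704 and 2483 (-2.09 ± 0.33, adjusted p = 2.76e-05) and Uggt1 at 565 and 177 against 749, 1044, 1043 and 1584 (-1.75 ± 0.32, adjusted p = 1.51e-04), with no overlap. Ern1 (-3.74 ± 1.14, adjusted p = 0.0131) and Sel1l were the other lower members. Higher were Herpud1 at 4690.1 and 5523 against 2894, 2505, 3179.5 and 3838 (0.73 ± 0.20, adjusted p = 0.00524), Manf (0.99 ± 0.30), Fkbp2 (1.17 ± 0.29) and Ddit3 (0.95 ± 0.31). Of the 26 members that rose after fasting at ZT2, 3 (Herpud1, Manf and Fkbp2) were called higher here and none lower. Of the 3 that fell, Hyou1 and Uggt1 were called lower. Hspa5 (-0.38 ± 0.35, adjusted p = 0.427), Pdia6 (0.06 ± 0.30), Xbp1 (0.18 ± 0.35) and Atf4 (0.02 ± 0.28) were not called. Without ZT5 control replicate 2 the count was 4 of 41, all lower, and without replicate 1, the library whose Hsd11b2 went against its label, it was 8.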

How the data were processed

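RNA-seq values were read from 1 deposited table of 23337 genes by 80 libraries. The submitters' processing notes name the mm10 build and, without roles, DESeq2, DESeq, R 3.5.1, Subread with featureCounts, and STAR 2.5.1. RNA was amplified with SMART-seq v4 and libraries built with Nextera XT, per the labels' protocols. The deposited values are signal: gene counts that the authors scaled by each library's size factor. In 79 libraries at least 99.99% of values were whole multiples (within 0.1) of 1 read's worth, so reads were recovered. The library sorted ad libitum ZT2 replicate 4 did not allow this and was left out of the edgeR test only. Sorted, RiboTag, leptin and ZT5 libraries were fitted separately (14931, 15444, 13942 and 12940 genes), each with all its groups, and comparisons across them in joint fits, by limma 3.58.1 (limma-trend, R 4.3.3) on log2(value + 1). Tested genes had 10 or more in at least the smallest group's number of libraries, with p-values adjusted by Benjamini-Hochberg over all of them (threshold 0.05). The script was tested on simulated data. Alternatives were edgeR 4.0.16 on recovered reads, a pseudocount of 5, no filter, TMM scaling, a replicate block and leaving out each library. The comparison of PBS with ad libitum libraries, the knockout at ZT5 without 2 libraries, and fasting without libraries of high tanycyte markers or high summed values, were added after seeing the data. Groups come from the labels. Members and lists were chosen with earlier results of these data known. All members could be named. Of the other pathway genes, up to 6 called with the smallest p in a comparison could be, and Agrp, Npy, Arntl, Hsd11b2, Cebpb, Alyref and Rn45s as context. Marker lists covered AgRP and other arcuate neurons, astrocytes, tanycytes, oligodendrocytes, microglia and endothelium. Positions and promoters are from RefSeq (GRCm38.p6), and exon lengths from GENCODE M21. Python 3.11.15, pandas 2.3.3 and matplotlib 3.10.9 were used.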

Additional observations from a re-analysis of the deposited data

Results flagged for a closer look

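A library's value was taken to stand apart where its gap to the nearest of the others, over the range of its group on the log2 scale, passed Dixon's 95% critical value in groups of 4 to 8 libraries. This held for 29 of 369 combinations of member and group (7.86%), where chance flags about 1 in 20. In fasted RiboTag at ZT14, replicate 3 was lowest for Hyou1 (113 against a median of 562 in the others), Ero1lb (52.6 against a median of 255 in the others), Eif2ak3 (3.76 against a median of 229 in the others) and Syvn1 (239 against a median of 913 in the others); replicate 4 was lowest for Dnajc3 (1312 against a median of 1917 in the others), Sdf2l1 (286 against a median of 932 in the others) and Pdia6 (3283 against a median of 9286 in the others). In sorted fasted cells at ZT14, replicate 3 was lowest for Eif2ak3 (2.14 against a median of 53.4 in the others), replicate 5 was highest for Sel1l (4299 against a median of 1570 in the others) and replicate 5 was lowest for Creld2 (491 against a median of 1275 in the others), Xbp1 (4584 against a median of 7830 in the others), Ddit3 (192 against a median of 506 in the others) and Asns (2077 against a median of 3494 in the others). In sorted refed cells at ZT2, replicate 1 was lowest for Derl2 (433 against a median of 525 in the others), replicate 2 was highest for Derl3 (4.83 against a median of 0 in the others) and replicate 4 was highest for Hsp90b1 (32445 against a median of 15854 in the others) and Derl1 (3145 against a median of 1584 in the others). In sorted ad libitum cells at ZT2, replicate 4 was lowest for Erp44 (806 against a median of 1433 in the others), replicate 6 was highest for Hyou1 (705 against a median of 401 in the others) and replicate 6 was lowest for Erp29 (2867 against a median of 4403 in the others) and Fkbp2 (1906 against a median of 2913 in the others). In sorted refed cells at ZT14, replicate 1 was highest for Edem1 (146 against a median of 110 in the others), replicate 2 was lowest for Asns (3303 against a median of 3736 in the others) and replicate 4 was highest for P4hb (10301 against a median of 6074 in the others). In sorted fasted cells at ZT2, replicate 1 was highest for Erp29 (11168 against a median of 5693 in the others); replicate 4 was highest for Syvn1 (1463 against a median of 575 in the others). In ad libitum RiboTag at ZT14, replicate 3 was lowest for Hspa5 (19657 against a median of 21226 in the others); replicate 4 was highest for Chac1 (242 against a median of 161 in the others). In fasted RiboTag at ZT2, replicate 3 was highest for Ppib (3238 against a median of 276 in the others).

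The fasting difference at ZT2 differed between RiboTag and sorted cells for 9 members in the joint fit (interaction term, limma, adjusted p under 0.05), with RiboTag lower; without RiboTag fasted replicates 3 and 5 Dnajb11 alone was called. The 9 differed as follows: Uggt1 by -1.49, Xbp1 by -1.07, P4hb by -1.30, Dnajc3 by -1.05, Derl1 by -1.20, Dnajb11 by -1.86, Hspa5 by -1.62, Erp44 by -1.11 and Pdia4 by -1.31 on the log2 scale. In RiboTag 7 of these 9 lay below 0, and in sorted cells 8 of the 9 lay above 0. Because the 9 were picked by a negative term in the same libraries, these signs follow in part from the choice. Within RiboTag alone, Uggt1 was the only member of the 9 that was called.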

How the results depend on the processing

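The counts of members called were recomputed with edgeR's quasi-likelihood test on recovered reads, a pseudocount of 5, no filter, TMM scaling, a replicate block and each library left out in turn, and, for fasting, without the libraries of high tanycyte markers or of high summed values (chosen after seeing the data). No member's called direction reversed under any of them. Counts below moved by more than 1.5 times under at least 1 setting, and the cause was not tested. Fasting in RiboTag at ZT2 had 3 members called, and 5 with edgeR, 5 with the replicate block and 1 to 5 with 1 library left out. At ZT14 it had 2, and 1 with edgeR, 1 with no filter, 1 with TMM scaling and 0 to 3 with 1 library left out. The difference of fasting between methods at ZT2 had 9, and 5 with edgeR, 5 with the replicate block, 1 without RiboTag fasted replicates 3 and 5 and 2 to 13 with 1 library left out, and at ZT14 0 and 0 to 1. With 1 library left out, counts ran from 4 to 16 for sorted fasting at ZT14 (all libraries: 13), 2 to 5 for refeeding at ZT14 (3), 9 to 15 and 7 to 11 for the methods ad libitum at ZT2 and ZT14 (15 and 12), 6 to 15 for PBS against ad libitum at ZT2 (13), 4 to 9 for ZT5 against PBS controls (9) and 0 to 1 for the knockout at ZT5 (0). Replicate numbers did not pair the libraries (every correlation between same-numbered libraries reached 0.1 in 2 of 50 pairs of groups), so the replicate block is given as an alternative only; it left sorted fasting at ZT2 at 28 members and at ZT14 at 13. It moved no other count past 1.5 times. Where a group falls to 1 library when another is left out, that library is assumed to vary like the other groups. TMM scaling moved the median of all genes by over 0.1 in 1 comparison, the methods ad libitum at ZT14 (-0.12). Low counts of Derl3, Trib3, Ern1 and Eif2ak3 limit what can be seen for them at this depth.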

Other observations

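Among the other pathway genes, amino acid and integrated stress response genes were compared between the methods in ad libitum libraries. At ZT2, Nupr1, a small stress-induced chromatin protein gene, was higher in RiboTag by 7.44 ± 1.14, the large neutral amino acid transporter Slc7a5 by 3.61 ± 0.63 and the cystine transporter Slc7a11 by 5.74 ± 1.08. At ZT14, Nupr1 (8.03 ± 1.23), Phgdh, the first enzyme of serine synthesis (8.70 ± 1.68), and Cbs, which makes cystathionine (8.45 ± 1.55), were among the 6 with the smallest p. Of 35 amino acid and integrated stress response genes tested at ZT2, 19 were higher in RiboTag and 1 lower, where 27.4% of all genes were called higher and 14.2% lower. The astrocyte marker sum was higher in the same libraries (median 20606 against 66.5), and its part in these differences was not tested.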
